A study of Saccharomyces cerevisiae with 167 samples.

Results

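Transcript levels in budding yeast (Saccharomyces cerevisiae) carrying a deletion of SNF2 (YOR290C) were measured on 3 dual-colour arrays, chosen by their titles from the 167 arrays of the series. The first of them set total RNA of deletion cells after heat shock at 39 °C against heat-shocked wild-type cells, the second set unstressed deletion cells in mid-log growth at 30 °C against unstressed wild-type cells, and the third set deletion cells at 39 °C against deletion cells at 30 °C. A wild-type array at 39 °C against 30 °C closes a loop of 4 arrays in which each kind of RNA appears on 2 arrays. The Cy5 channel held the deletion or the heat-shocked RNA, and dyes were not swapped. The length of the heat shock and the strain background are not given in the labels, and nothing in them says whether RNA on different arrays came from separate cultures. Each comparison rests on 1 array, so sizes are described and no p-value is given for them. Of the 13029 probes, 6269 stand for open reading frames (ORFs), and 6262 of these had a value on all 4 arrays. The other 7 are not analysed here.

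Snf2 is the ATPase of SWI/SNF, a complex that uses ATP to slide or evict nucleosomes and so changes the access of transcription factors to promoters. In yeast it is known for its part in the expression of Ty1 retrotransposons, acid phosphatase, inositol synthesis and sugar-use genes, and for recruitment to heat shock genes. Heat shock in yeast raises transcripts of chaperones through Hsf1 and of general stress genes through Msn2 and Msn4, while transcripts of ribosomal proteins and of ribosome assembly factors fall. In RNA from whole cultures, fewer cells that express a gene and less RNA per cell cannot be told apart.

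All values below are log2 ratios after centring each array on the median of all its probes, so that 1 stands for a 2-fold difference. Of the other arrays used here, 13 form a heat shock time course of poly(A) RNA, in which deletion cells (2 arrays at 0 s and 1 each at 30, 60, 300 and 900 s) and wild-type cells (2 arrays each at 0 and 900 s and 1 each at 30, 60 and 300 s) were set against RNA of unstressed wild-type cells. This time course gives the only tested strain differences, with limma and Benjamini-Hochberg adjusted p under 0.05 over the 6262 probes. A gene said to fall or rise at 0 s passed this test lower or higher in the deletion than in wild-type cells. A further 3 arrays hold heat-shocked against unstressed cells, with no deletion named in their labels. Another 9 arrays hold the same 3 comparisons for deletions of CHD1, ISW1 and ISW2, which encode other nucleosome remodelling ATPases. Their strain arrays are set against wild-type RNA of the same description, so likeness among the 4 deletions can come from that shared RNA.

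The loop gives the error of a single array, apart from dye bias. Dyes were not swapped, so a bias of a probe that the 4 arrays share cancels in the sum below. The labels do not say whether cultures were shared, so the spread between cultures may be missing too. The sum of the 30 °C strain array and the deletion's heat array, less the 39 °C strain array and the wild-type heat array, would be 0 for every probe without error. It had a median of 0.35 and an SD of 0.63 over 6262 probes, which gives an error SD of 0.31 for 1 array if the 4 err alike and independently. The pooled SD of the 3 replicate heat shock arrays was 0.33. For 685 probes (10.9%) the sum was at least 1 in size. The widest were FSH1 (3.97), where the wild-type heat array alone stood at -3.84, and VPS60 (-3.46), where the 39 °C strain array alone stood at 3.77. NUT2 (3.66), a Mediator subunit, was at 3.33 on the 30 °C strain array and at most 0.53 in size on the others. These 3 genes had no second array to bear out their extreme value. They stay in the counts below, and none of them is read as a result.

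The SNF2 probe stood at -1.34 in deletion against wild-type cells at 39 °C and at -0.40 at 30 °C. On the 3 arrays of the other deletions it was between -0.55 and -0.46 at 39 °C and between -0.29 and -0.03 at 30 °C. At 39 °C this value was thus larger than the error of 1 array, and at 30 °C about as large as that error, with 16.8% of ORF probes lower. For comparison, on their own 30 °C arrays CHD1 stood at -2.89, ISW1 at -2.45 and ISW2 at -2.04. At 0 s of the time course SNF2 was at -0.05 and -0.03 in deletion cells and at 0.32 and 0.67 in wild-type cells, a difference of -0.53 (limma adjusted p = 0.14). Where the probe lies relative to the deleted stretch is not given, so at 30 °C it is a weak check of the label.

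At 39 °C, 499 genes (7.97%) were at least 2-fold higher and 288 (4.6%) at least 2-fold lower in deletion than in wild-type cells. At 30 °C, 385 genes (6.15%) were at least 2-fold higher and 209 (3.34%) at least 2-fold lower. At both temperatures, 98 genes (1.56%) were higher and 125 (2%) were lower. The split between higher and lower moved with the centring. Centred on ORF probes alone, the counts were 334 higher and 406 lower at 39 °C, and 281 higher and 273 lower at 30 °C.

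Ty1 transcript was lower in the deletion on both strain arrays. The 12 probes that the array names after Ty1 retrotransposons had a median of -2.81 (range -3.07 to -2.31) in deletion against wild-type cells at 39 °C and of -2.89 (range -3.14 to -2.49) at 30 °C. Between 39 °C and 30 °C their median was 0.69 in deletion cells and 0.18 in wild-type cells. All 12 lay well below the ORF median of 0.16 at 39 °C and of 0.12 at 30 °C. These probes were singled out after their values were seen.

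The other Ty families differed less. The pair of Ty2 probes had a median of -1.60 at 39 °C and -1.85 at 30 °C. The 4 Ty3 probes stood at -0.06 and 0.30, the 5 Ty4 probes at -0.38 and -0.68, and the 3 Ty5 probes at -0.73 and -0.50, each first at 39 °C and then at 30 °C. The 115 delta probes, the long terminal repeats of Ty1 and Ty2, had medians of -0.62 and -0.61 in the same order. At 30 °C the delta median was much the same on the arrays of the CHD1, ISW1 and ISW2 deletions (-0.55, -0.45 and -0.53). The Ty2 median was -1.20, -0.10 and -0.72 there, and the Ty5 median was -0.983, -1.001 and -0.980.

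Values of the poly(A) RNA time course go the same way for Ty1. The median of the 12 Ty1 probes was -1.01 and -1.54 in deletion cells and 0.64 and 0.62 in wild-type cells at 0 s, and -1.44 in deletion cells against 0.65 and 0.50 in wild-type cells at 900 s. Each of these groups had only 1 or 2 arrays, and the Ty1 probes were not among the probes tested. On the 30 °C arrays of the other deletions the same median was -0.84 for CHD1, 0.06 for ISW1 and -0.26 for ISW2.

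ORFs without a gene symbol made up most of the genes that were lower at both temperatures. Of those 125, 36 have a symbol, 72 are annotated without one and 17 are not in the annotation used. At 0 s of the time course, 397 genes (6.34%) differed between the strains by limma's adjusted p, 120 (1.92%) higher and 277 (4.42%) lower in the deletion. Among the 72 without a symbol, 58 passed this test and all 58 were lower, with a median of -1.23. The lowest included YBL005W-A (-3.07 at 39 °C, -3.57 at 30 °C, -1.13 at 0 s), YJR029W (-3.07, -2.99 and -2.08) and YLR035C-A (-2.92, -3.14 and -2.54). Of 39 annotated ORFs without a symbol that span over 5000 bases, 32 were at least 2-fold lower at 39 °C and 33 at 30 °C, and 26 passed at 0 s, all lower. Near-identical copies cross-hybridise, so values of single ORFs of this kind are uncertain. The 0 s count also rests on each wild-type array: 4 genes passed without wild-type replicate 1 and 16 without replicate 2.

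**Figure D1:**
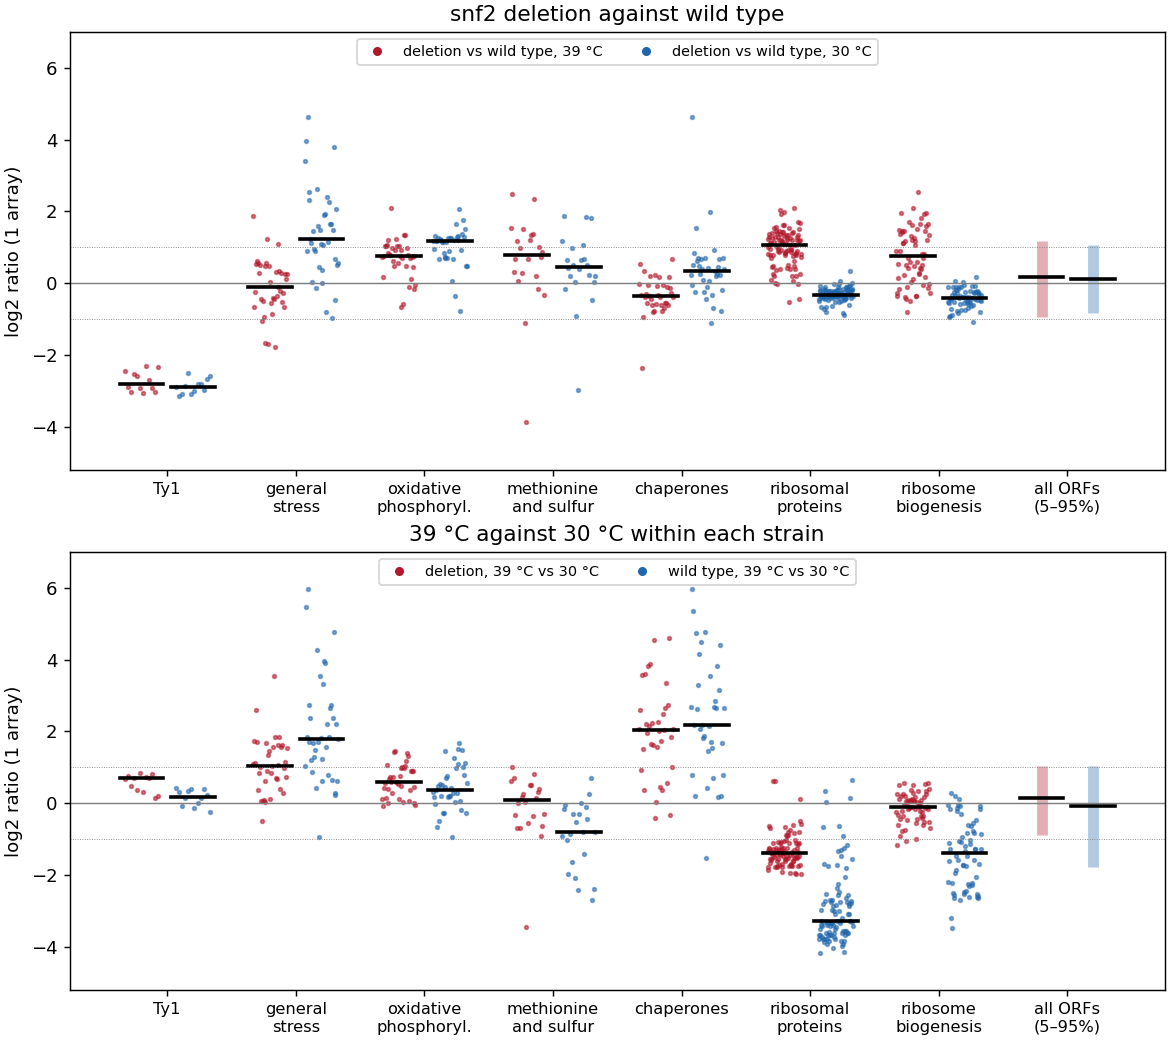
Log2 ratios (y axis) of each gene on the 4 arrays of the loop, with deletion against wild type in the upper panel and 39 °C against 30 °C in the lower panel. Each point is a gene or probe, each black line the median of its set, the shaded bars the percentile range of all ORFs named on the axis and the dotted lines 2-fold. The 12 Ty1 probes sit between -3.14 and -2.31 on both strain arrays, and the ribosomal proteins have a median of -1.39 in the deletion's heat array and -3.29 in the wild-type heat array.

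Genes with a symbol that were lower at both temperatures and fell at 0 s numbered 6. TIP1, a cell wall mannoprotein, stood at -2.73 at 39 °C and -2.40 at 30 °C. In the time course it was at -2.53 and -2.87 in deletion cells and at 0.56 and 0.44 in wild-type cells, a difference of -3.20 ± 0.20 (SE, limma adjusted p = 0.0016). TIP1 stood at 2.29, 1.15 and 1.05 on the 30 °C arrays of the CHD1, ISW1 and ISW2 deletions, so the 4 deletions were not alike here. With heat it stood at 3.43 in the deletion's heat array and 3.27 in the wild-type heat array.

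ZRT1, the high-affinity zinc transporter of the plasma membrane, was at -2.05 at 39 °C and had the lowest value of all ORFs at 30 °C, -4.55. Its difference at 0 s was -1.04 ± 0.22 (limma adjusted p = 0.040). YHB1, the flavohemoglobin that detoxifies nitric oxide, was at -1.05 and -3.67 on the 39 °C and 30 °C arrays and at -2.08 ± 0.25 at 0 s (limma adjusted p = 0.0081). On the deletion's heat array ZRT1 stood at -0.14 and YHB1 at -0.04, against -3.39 and -3.21 on the wild-type heat array. The other 3 were SIT1, a siderophore transporter (-2.12 and -1.97 on the arrays, -1.69 at 0 s), ZEO1 (-1.38, -2.92 and -1.66) and REE1 (-1.79, -1.56 and -1.22). ZEO1 and REE1 were named after their values were seen.

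MET17, which makes homocysteine from sulfide, was the lowest gene at 39 °C. It stood at -3.88 at 39 °C and -2.97 at 30 °C in the SNF2 deletion, but also at -2.96, -3.70 and -3.49 on the 30 °C arrays of the CHD1, ISW1 and ISW2 deletions. At 0 s it was at 0.50 and 0.27 in deletion cells and -0.23 and -0.28 in wild-type cells (difference 0.64, limma adjusted p = 0.069). The low MET17 value was thus shared by all 4 deletions on the single arrays and was not seen in the time course.

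Other genes of sulfur and methionine metabolism were higher. Of the 22 in the list, 9 were at least 2-fold higher and 2 lower at 39 °C (median 0.79), and 5 were higher and 1 lower at 30 °C (median 0.46). MET2, which acetylates homoserine, stood at 2.49 and 1.88, and STR3, a cystathionine beta-lyase, at 2.36 and 1.86. MET1, an enzyme of siroheme synthesis, stood at 1.54 and 1.17. At the start of the time course 7 of the 22 rose and 1 fell in the deletion, where the median of the list was 0.40. MET2 was at 2.23 and 2.26 in deletion cells and at 0.71 and 0.48 in wild-type cells (difference 1.65 ± 0.16, limma adjusted p = 0.0043). STR3 differed by 1.45 ± 0.17 and MET1 by 1.46 ± 0.16. Values of the same 3 genes on the 30 °C arrays of the other deletions lay between -0.36 and 1.00.

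GAP1, SER3, GUT2 and RTS3 were also higher at both temperatures and rose at 0 s. GAP1, the general amino acid permease, stood at 1.42 at 39 °C and 2.31 at 30 °C, and at 0 s it was at 1.39 and 1.21 in deletion cells against -0.34 and -0.62 in wild-type cells (difference 1.78 ± 0.18, limma adjusted p = 0.0043). SER3, a serine synthesis gene known to be repressed by transcription of an upstream noncoding RNA, stood at 1.29 and 1.81 on the arrays and differed by 1.35 ± 0.18 at 0 s. The other serine synthesis genes of the list of other amino acids were not all higher on the arrays, with SER1 at 1.04 and -1.30, SER2 at 0.37 and -0.14, and SER33 at 1.19 and 1.03 at 39 °C and then 30 °C. GUT2, the mitochondrial glycerol-3-phosphate dehydrogenase, stood at 1.71 and 3.27 (1.19 ± 0.17 at 0 s), and RTS3 at 2.10 and 2.93 (1.21 ± 0.18). YNL276C, numbered next to MET2, followed it at 2.97 and 2.12, and probes of adjoining ORFs may share signal.

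The time course bore out a part of these single-array values. Of the 125 genes lower at both temperatures, 70 fell at 0 s (56.0%, against 4.42% of all genes) and 1 rose. Of these 70, 58 are annotated without a symbol and 6 are not in the annotation. Near-identical copies without a symbol cross-hybridise, so the 70 are not separate observations. Among the 36 with a symbol, 6 fell. Of the 98 higher at both temperatures, 24 rose (24.5%, against 1.92%) and 2 fell. Of the 385 higher at 30 °C, 45 rose (11.7%) and 22 fell. FMP48 (3.21 at 39 °C, 3.08 at 30 °C) and STP4 (1.93 and 3.08) were among the highest on the arrays and were at -1.22 and -0.91 at 0 s, where both fell. STP4 also stood at 3.93, 2.45 and 2.80 on the 30 °C arrays of the CHD1, ISW1 and ISW2 deletions.

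**Figure D2:**
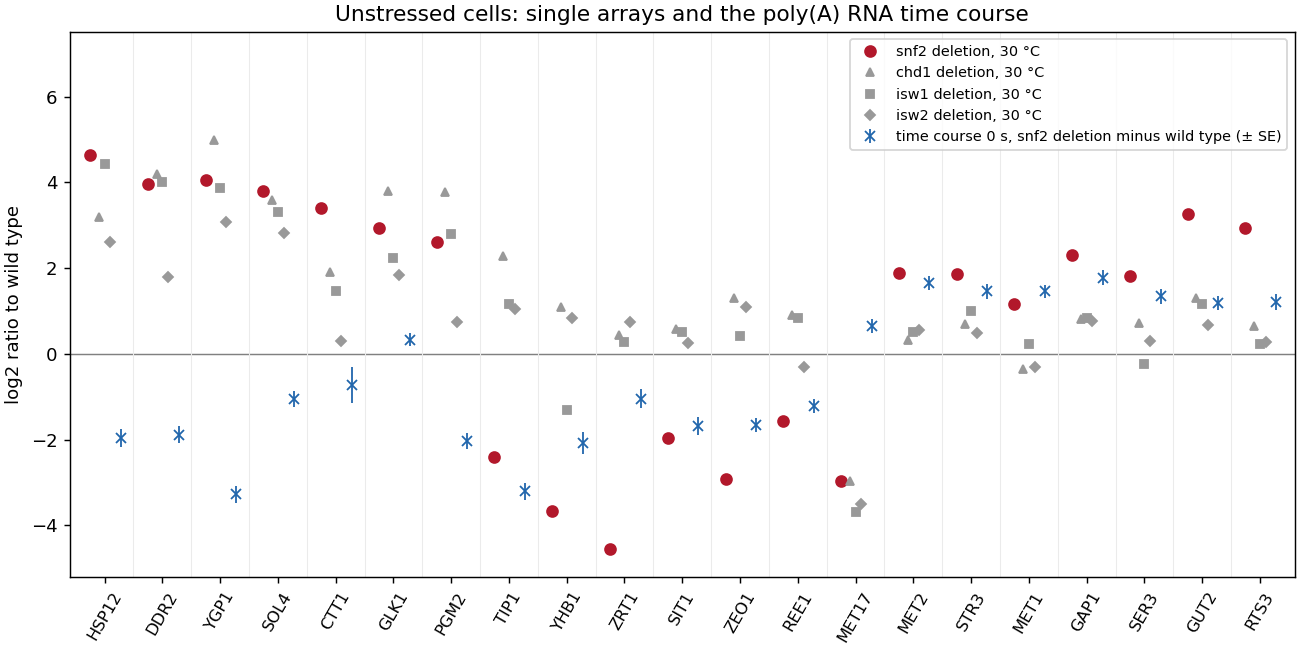
Log2 ratios of named genes in unstressed cells, with the SNF2 deletion array, the arrays of the other 3 deletions and the limma difference of the time course at 0 s (± SE) marked separately for each gene. HSP12, DDR2, YGP1 and SOL4 lie above 3.7 on the SNF2 deletion array and below -1.0 in the time course, whereas TIP1, YHB1, ZRT1 and SIT1 are low in both.

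Stress genes gave opposite values on the single arrays and in the time course. In unstressed cells, 23 of 37 general stress genes were at least 2-fold higher on the SNF2 deletion array and none was 2-fold lower, with a median of 1.24. HSP12, a small membrane-associated stress protein, stood at 4.64, YGP1, a secreted glycoprotein of starved cells, at 4.07, DDR2 at 3.96, SOL4, a 6-phosphogluconolactonase, at 3.79 and CTT1, the cytosolic catalase, at 3.40. The list median was 1.74, 1.30 and 0.84 on the 30 °C arrays of the CHD1, ISW1 and ISW2 deletions, and HSP12 stood there at 3.18, 4.42 and 2.60. At 39 °C the median in the SNF2 deletion was -0.12, with 3 genes higher and 4 lower. The 39 °C strain arrays of the CHD1, ISW1 and ISW2 deletions had list medians of 1.04, 0.99 and 1.00.

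At 0 s none of the 37 rose and 12 fell in deletion cells of the time course (list median -0.25). HSP12 was at -1.10 and -1.64 in deletion cells against 0.53 and 0.65 in wild-type cells, a difference of -1.96 ± 0.21 (limma adjusted p = 0.0062). YGP1 differed by -3.27 ± 0.19 and DDR2 by -1.88 ± 0.20 (adjusted p = 0.0016 and 0.0057). The unstressed wild-type RNA is shared in kind by the 4 single arrays at 30 °C, and its part in the high stress gene values was not tested.

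Oxidative phosphorylation genes showed a similar split. At 39 °C, 10 of 37 were at least 2-fold higher (median 0.75), and at 30 °C 23 were (median 1.17). The same list had medians of 1.25, 0.89 and 0.76 on the 30 °C arrays of the CHD1, ISW1 and ISW2 deletions. At 0 s of the time course its median was -0.02, none rose and 3 fell.

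Genes known from earlier work to depend on SWI/SNF differed little from wild-type cells on the single arrays of the SNF2 deletion. Of 15, 2 were at least 2-fold lower at 39 °C (PHO84, the phosphate transporter, -1.61, and HXT2, a glucose transporter, -1.16), and 1 was lower at 30 °C (PHO5, the repressible acid phosphatase, -1.10). None was 2-fold higher on either array. INO1, the inositol synthesis enzyme, stood at -0.28 and -0.46, SUC2, invertase, at -0.18 and 0.36, and HO, the mating-type switching endonuclease, at -0.48 and -0.76. Apart from HO at 30 °C, the values of these last 3 genes lay within 2 error SDs of a single array by the loop, which leaves out dye bias. The list median was -0.18 at 39 °C and -0.08 at 30 °C. On the 30 °C arrays of the CHD1, ISW1 and ISW2 deletions it was higher, at 1.05, 0.71 and 0.81.

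At 0 s of the time course 5 of these 15 fell, among them PHO5 (-1.92, limma adjusted p = 0.0039), INO1 (-1.15, adjusted p = 0.012) and ADH2, the glucose-repressed alcohol dehydrogenase (-0.88, adjusted p = 0.030). PHO3, the constitutive acid phosphatase and a near copy of PHO5, stood at -0.07 at 39 °C and -1.68 at 30 °C and fell by 2.91 at 0 s. Of 22 glycolysis genes 9 fell at 0 s (list median -0.60). The list median was 2.02, 0.98 and 1.18 on the 30 °C arrays of the CHD1, ISW1 and ISW2 deletions. On the SNF2 deletion arrays it was -0.05 at 39 °C and 0.02 at 30 °C. Other SWI/SNF subunits kept their levels within 2-fold apart from RTT102 (1.20 at 39 °C) and SNF6 (1.02 at 30 °C), and none of the 12 passed at 0 s.

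On 1 array, heat-shocked deletion cells had more ribosomal protein transcript than heat-shocked wild-type cells. Of 99 ribosomal protein genes, 53 were at least 2-fold higher and none lower at 39 °C (median 1.07), while none was 2-fold different at 30 °C (median -0.32). On the 39 °C strain arrays of the CHD1, ISW1 and ISW2 deletions, set against wild-type RNA of the same description, the list median was 0.43, 0.59 and 0.41. In the time course the list's difference between deletion and wild-type cells had a median of 0.44 at 900 s, with 1 deletion array. At 0 s this median was -0.59, where 17 of the 99 fell, against 4.42% of all genes, and none rose. Of 64 ribosome biogenesis genes, 28 were higher and none lower at 39 °C (median 0.76), against 0 higher and 1 lower at 30 °C (median -0.40). EBP2, a nucleolar assembly factor, stood at 2.55 and -0.53, and NSR1, the yeast nucleolin, at 1.97 and -0.88, each at 39 °C and then 30 °C.

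Iron uptake genes were lower at 39 °C. Of 24 in the list, 8 were at least 2-fold lower and none higher (median -0.55), against 2 lower and none higher at 30 °C (median -0.01). FET3, the ferroxidase of high-affinity iron uptake, stood at -2.84 and -0.11, FIT2, a cell wall protein that retains siderophore iron, at -2.48 and 0.34, and ENB1, the enterobactin transporter, at -2.10 and -0.59. The lower group also held SIT1 (-2.12), ARN1 (-1.94), FIT3 (-1.74), TIS11 (-1.49) and FIT1 (-1.02).

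In the time course, 342 genes (5.46%) differed between strains at 900 s, 113 (1.8%) higher and 229 (3.66%) lower, with a single deletion array there that is assumed to vary like the others. Of the iron genes 4 were lower and 1 was higher in the deletion at 900 s. FIT2 was at -1.54 in deletion cells and at 2.05 on both wild-type arrays. SIT1 was the higher gene, at 0.69 in deletion cells and -1.74 and -2.06 in wild-type cells. On the single arrays SIT1 was low at both temperatures, so its direction after heat differed between the data sets.

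Within deletion cells, 357 genes (5.7%) were at least 2-fold higher and 243 (3.88%) at least 2-fold lower at 39 °C than at 30 °C. On the wild-type array these were 345 (5.51%) and 731 (11.7%). Chaperones were high in both strains. Of 35 chaperones and heat shock proteins 27 were at least 2-fold higher in each strain, with medians of 2.04 in deletion cells and 2.19 in wild-type cells. The list's difference in response had a median of -0.58 across strains and -0.33 within strains. In the time course the list median was 1.78 in deletion cells, where 26 rose, against 241 of all 6262 genes. In wild-type cells it was 2.49 and 30 rose, against 649 of all 6262 genes. The deletion had fewer arrays at the end of the time course, so these counts are not compared between strains. BTN2, which gathers misfolded proteins, stood at 4.60 in deletion and 4.40 in wild-type cells, SSA4, an Hsp70, at 4.55 and 4.79, HSP104, the disaggregase, at 3.89 and 4.51, HSP82, an Hsp90, at 3.84 and 4.16, and HSP42, a small heat shock protein, at 3.62 and 4.74.

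HSP30, a plasma membrane heat shock protein, stood at 3.58 on the deletion's heat array and at 5.35 on the wild-type one, and at -2.38 between heat-shocked deletion and wild-type cells. In the time course it was at 1.83 in deletion cells and at 4.06 and 3.88 in wild-type cells at 900 s (-2.14, limma adjusted p = 0.0036), and at 0 s it was already lower in the deletion (-2.70, adjusted p = 0.0016). On the 30 °C strain array, however, HSP30 stood at 0.51, so its direction in unstressed cells differed between the data sets. On the loop arrays its response differed by -2.89 across strains and -1.77 within strains. In the time course its difference in response did not pass the test.

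With heat, ribosomal protein transcripts stood less low in the SNF2 deletion than on the heat arrays of the other 4 strains. Of 99 genes, 83 were at least 2-fold lower in deletion cells (median -1.39) and 92 in wild-type cells (median -3.29). The list median was -3.28, -2.98 and -3.10 in the CHD1, ISW1 and ISW2 deletions, whose heat arrays share no RNA with the deletion's array, per the labels. For ribosome biogenesis the medians were -0.10 in the SNF2 deletion, -1.70, -1.31 and -1.93 in the other deletions, and -1.40 in wild-type cells. With 1 array a strain no test was made. In the time course the list of ribosomal proteins went by -1.91 in deletion cells (85 of 99 fell, against 6.08% of all genes) and by -2.91 in wild-type cells (95 fell, against 15.8%), and no ribosomal protein gene passed the test of a difference in response.

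A wider set of heat genes was chosen on the 3 replicate heat shock arrays, which lie outside the loop. On all 3 of them 258 genes were at least 2-fold higher and 301 at least 2-fold lower. In the SNF2 deletion the 258 induced genes had a median of 1.03 and 53.5% were at least 2-fold higher, against 1.34 and 63.6% in wild-type cells. The 301 repressed genes had a median of -0.82 with 42.9% at least 2-fold lower, against -2.35 and 90.0% in wild-type cells. In the CHD1, ISW1 and ISW2 deletions the medians were -2.71, -2.36 and -2.58 for the repressed set and 1.04, 1.31 and 1.51 for the induced set, so the SNF2 deletion stood nearest 0 of the 5 strains in both sets, next to the CHD1 deletion in the induced one. Time course medians in deletion and wild-type cells were 1.01 and 1.53 for the induced set and -1.45 and -2.21 for the repressed set.

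**Figure D3:**
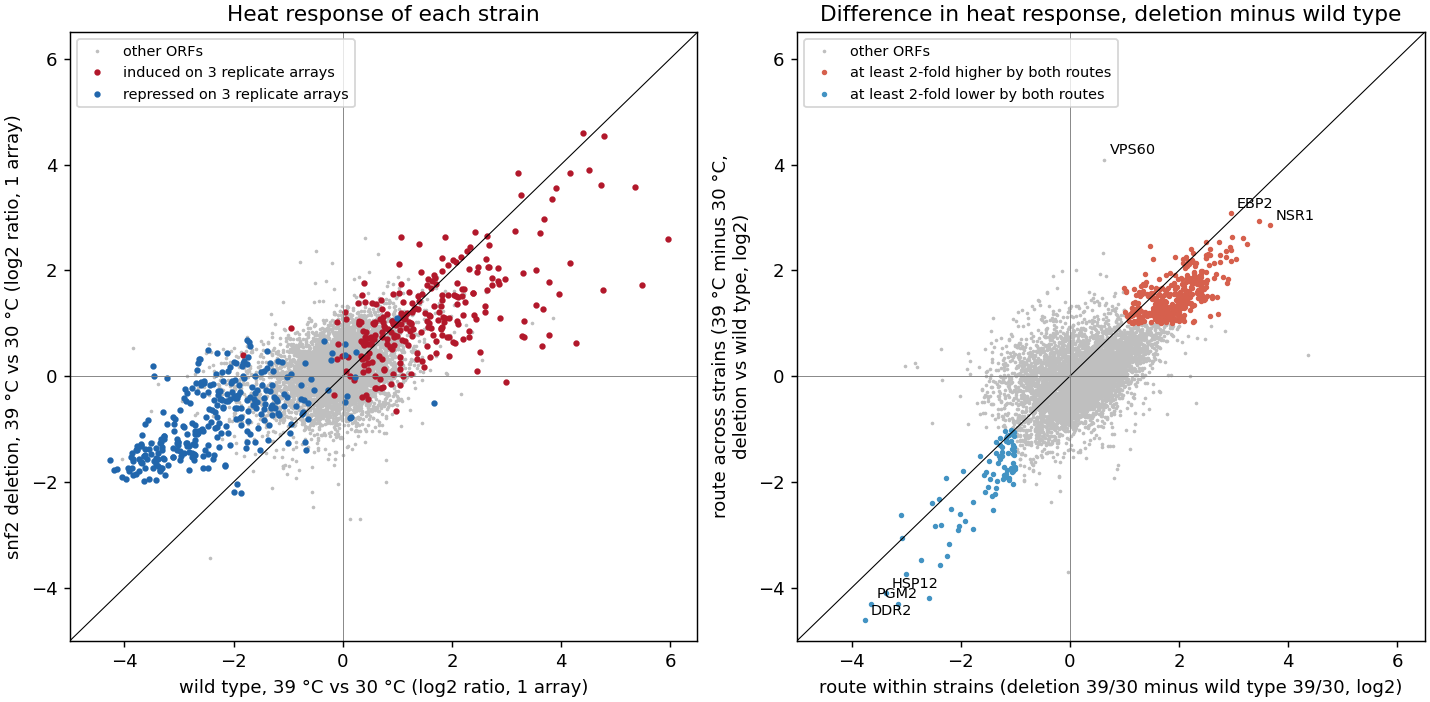
Left, log2 ratio at 39 °C over 30 °C in SNF2 deletion cells (y axis) against wild-type cells (x axis), 1 array each, where genes repressed on the 3 replicate arrays mostly lie above the line of equal response (medians -0.82 in deletion and -2.35 in wild-type cells). Right, the difference in heat response by the route across strains (y axis) against the route within strains (x axis), in log2, with the 330 genes higher and the 81 lower by both routes in colour and EBP2, NSR1, DDR2, PGM2, HSP12 and VPS60 named.

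The difference in heat response between strains can be had along 2 routes round the loop, from the pair of strain arrays and from the pair of heat arrays. By both routes, 330 genes (5.27%) had a response at least 2-fold higher in the deletion and 81 (1.29%) at least 2-fold lower. The split depends on the centring, with 297 and 126 after centring on ORF probes alone. The routes use different arrays but the same kinds of RNA, so their accord speaks only to array error. The 330 held 72 of 99 ribosomal protein and 33 of 64 ribosome biogenesis genes. EBP2 (3.08 across strains and 2.95 within strains), NSR1 (2.85 and 3.66) and MAK16 (2.63 and 2.97), all of ribosome assembly, were among the highest.

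The 81 genes with the lower response held 15 of the 37 general stress genes and 5 of the 35 chaperones. DDR2 differed by -4.62 across strains and -3.76 within strains, PGM2, the major phosphoglucomutase, by -4.30 and -3.64, HSP12 by -4.11 and -3.37, SOL4 by -4.30 and -3.14, and RGI1, a gene of respiratory growth, by -2.62 and -3.09. DDR2, HSP12 and SOL4 were high on the 30 °C strain array (3.96, 4.64 and 3.79), a value that the route across strains subtracts. At 0 s of the time course the same 3 genes were lower in the deletion (-1.88, -1.96 and -1.06). On the heat arrays HSP12 stood at 2.59 in deletion and 5.97 in wild-type cells, and the strains differed by 0.53 once at 39 °C. RGI1 stood at -2.57 at 39 °C and 0.05 at 30 °C in deletion against wild-type cells, but in the time course it was already lower at 0 s (-1.78, limma adjusted p = 0.0057).

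The time course gave the strain difference at each end of the response. At 900 s, 35 of the 81 were lower in the deletion (43.2%, against 3.66% of all genes) and none was higher. At 0 s, before heat, 24 of the 81 were already lower (29.6%, against 4.42%) and 4 were higher. The 900 s count is thus one of levels and does not alone show a difference in response. That difference, 900 s less 0 s in deletion against wild-type cells, had a median of -0.57 over the 81. It was negative for 74.1% of them, against 45.7% of all genes. Over the 330 its median was 0.87, and 6.36% were negative. Of the 330, 39 were higher at 900 s (11.8%, against 1.8%) and 4 were lower, and at 0 s 5 were higher and 47 lower. HSP12 was at 2.56 in deletion cells and at 3.94 and 4.07 in wild-type cells at 900 s, and DDR2 at 1.47 against 3.50 and 3.90. PGM2 differed by -2.91 (limma adjusted p = 0.0028) and RGI1 by -3.72 (adjusted p = 0.0015). Of the 37 general stress genes 17 were lower and none was higher in the deletion than in wild-type cells at this time.

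A difference in response as such, 900 s less 0 s in deletion against wild-type cells, passed for 17 genes (0.271%), 6 higher (0.0958%) and 11 lower (0.176%), and for 8 genes with the set number as a replicate block. The 17 genes held 3 of the 81 and 1 of the 330. HXT5, a glucose transporter of slow-growing cells, went by 0.95 in deletion and 4.64 in wild-type cells (difference -3.68 ± 0.31, limma adjusted p = 0.017), and its loop routes gave -2.90 and -2.05. ALD3, an aldehyde dehydrogenase, went by 0.44 and 4.03 (difference -3.59 ± 0.32, adjusted p = 0.020), with routes of -1.92 and -2.27. NSR1 went by -1.58 and -3.76 (difference 2.19 ± 0.24, adjusted p = 0.033), with routes of 2.85 and 3.66. This count rests on the few 0 s arrays: no gene passed without any single one of the 4, and leaving out wild-type replicate 1 or 2 at 900 s gave 60 and 45.

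Markers of mating type moved on the loop arrays and are given for what they show of the strains. On the wild-type heat array the a-specific genes STE2 (-2.71), BAR1 (-2.71), AGA2 (-2.26), MFA1 (-1.83) and MFA2 (-1.17) were at least 2-fold lower at 39 °C, and STE6 was at 0.47. On the SNF2 deletion's heat array the 6 lay between -0.92 and 0.39. STE2 stood at -3.44, -2.15 and -1.99 on the heat arrays of the CHD1, ISW1 and ISW2 deletions. Between deletion and wild-type cells BAR1 stood at 0.27 at 39 °C and -1.88 at 30 °C, STE2 at 0.31 and -1.03, and MFA1 at 1.51 and -0.90. The alpha-specific genes were not alike, with STE3 at 0.50 and 0.91, MF(ALPHA)2 at 0.56 and 0.85, SAG1 at 0.13 and -0.15 and MF(ALPHA)1 at -0.65 and 0.01. Of 14 mating-type genes 3 passed at 0 s of the time course. They were the alpha-specific STE3, SAG1 and MF(ALPHA)2, lower in the deletion (-1.61, -1.68 and -1.40), and MF(ALPHA)1 did not pass. On the 3 replicate heat shock arrays the means of STE2, BAR1 and STE3 ran the other way, at 1.11, 1.05 and -2.49. The median over the 14 genes was -0.12 there. The part of mating type in the other differences was not tested.

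Snf2 itself was mapped on arrays of DNA bound to Myc-tagged Snf2 over input DNA, 5 after heat shock and 3 of unstressed cells. The readout is the median log2 ratio of promoter regions of a gene class less that of all other promoter regions on the same array. Promoters of the 81 genes with a lower heat response in the deletion held 65 regions and stood at 0.31 ± 0.09 (SD, n = 5) after heat shock, with every array between 0.24 and 0.43, and at 0.03 ± 0.05 (SD, n = 3) in unstressed cells. Those of the 330 genes with a higher response, 269 of which had a promoter region, stood at 0.05 ± 0.03 after heat shock and 0.11 ± 0.05 in unstressed cells. The lower-response class was thus above other promoters on all 5 heat shock arrays.

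That excess was shared by heat-induced genes at large. Promoters of the 258 induced genes, 208 of which had a promoter region, stood at 0.30 ± 0.08 after heat shock (SD, n = 5). Induced genes with a lower response in the deletion (45 genes) stood at 0.30 ± 0.10, and the other 213 at 0.30 ± 0.09. Of the 385 genes higher at 30 °C in the deletion, 292 had a promoter region. Their promoters stood at 0.18 ± 0.10 after heat shock and at -0.06 ± 0.03 in unstressed cells. Of the 209 genes lower at 30 °C only 106 had a promoter region. Promoters of these 106 stood at -0.01 ± 0.06 and 0.03 ± 0.08, within the spread of the arrays round 0. The rest of the 209 have no Snf2 value here.

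**Figure D4:**
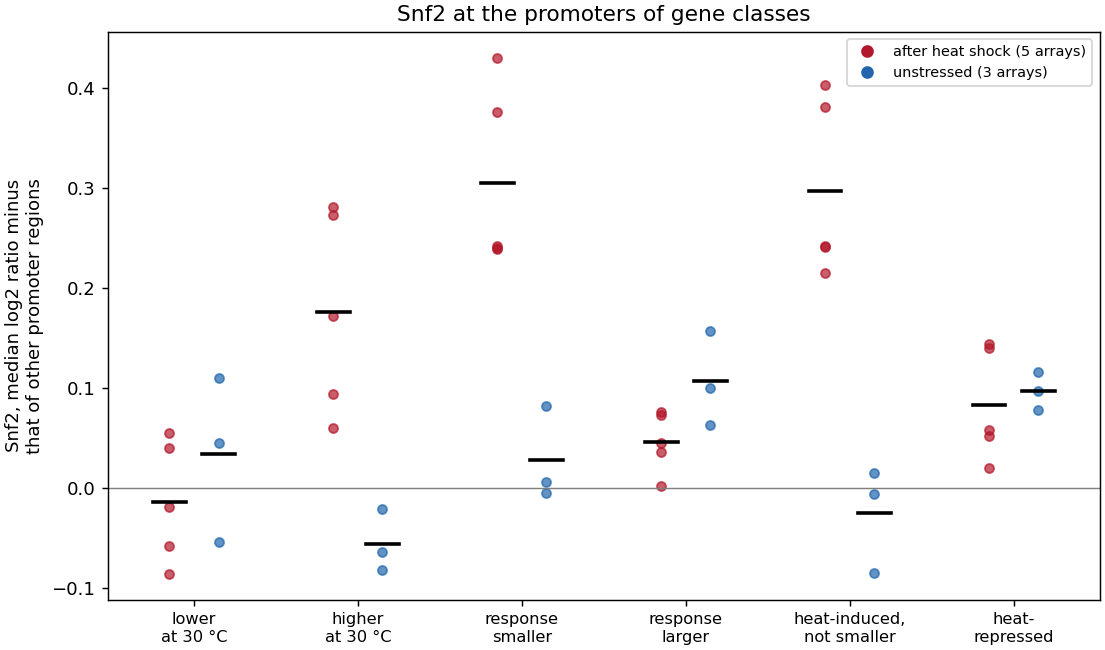
Median Snf2 log2 ratio of promoter regions of each gene class less the median of all other promoter regions (y axis), with a point for each array and a line for the mean, 5 arrays after heat shock and 3 of unstressed cells. Genes whose heat response was lower in the SNF2 deletion (response smaller) average 0.31 after heat shock and 0.03 in unstressed cells. Genes lower at 30 °C (106 of 209 with a promoter region) average -0.01 and 0.03.

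Values on the 3 deletion arrays also varied with position along the genome. The 3747 ORFs of chromosomes 1 to 11 had medians of 0.31 at 39 °C, 0.27 at 30 °C and 0.27 on the deletion's heat array, against -0.10, -0.09 and -0.06 for the 2515 ORFs of chromosomes 12 to 16. The same contrast was 0.40 against -0.04 on the CHD1 deletion's 30 °C array, and -0.06 against -0.04 at 0 s of the time course. Of the genes at least 2-fold higher at 30 °C, 291 (7.77% of ORFs there) lay on chromosomes 1 to 11 and 94 (3.74%) on 12 to 16. This division was chosen after the values were seen, and its cause was not tested.

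A run of neighbouring genes on the right arm of chromosome 7 stood out on the strain arrays. That arm holds 307 of the measured ORFs (4.90%) and 24 of the 98 genes higher at both temperatures (24.5%), and 6 of these 24 rose at 0 s. Between CLB1 and YGR122W, 9 of 15 neighbouring annotated ORFs were at least 2-fold higher at both temperatures. The window's medians were 1.22 at 39 °C and 1.27 at 30 °C, against 0.06 and -0.35 on the heat arrays of deletion and wild-type cells. On the 30 °C arrays of the other deletions its median lay between 0.30 and 0.63. No other window of 15 ORFs outside this stretch held more than 4 such genes.

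The run is broken by genes that did not differ. CLD1, a cardiolipin lipase, stood at 1.90 at 39 °C and 2.26 at 30 °C, SHY1, a cytochrome oxidase assembly factor, at 1.22 and 1.35, DAM1, a kinetochore subunit, at 1.35 and 1.34, and MEP1, an ammonium transporter, at 1.19 and 1.83. SPT6, a histone chaperone among them, was at 0.03 and 0.18. CLD1 and MEP1 rose at 0 s of the time course (0.96 and 1.53), whereas the window's median there was -0.21. In the window 3 genes fell at 0 s: CLB1, a B-type cyclin at its edge (-2.33, and -0.90 and -0.91 on the arrays), its neighbour CLB6 (-0.89) and the ribosomal protein gene RPS23A (-0.81). The window was found by searching these values, so no test was made.

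**Figure D5:**
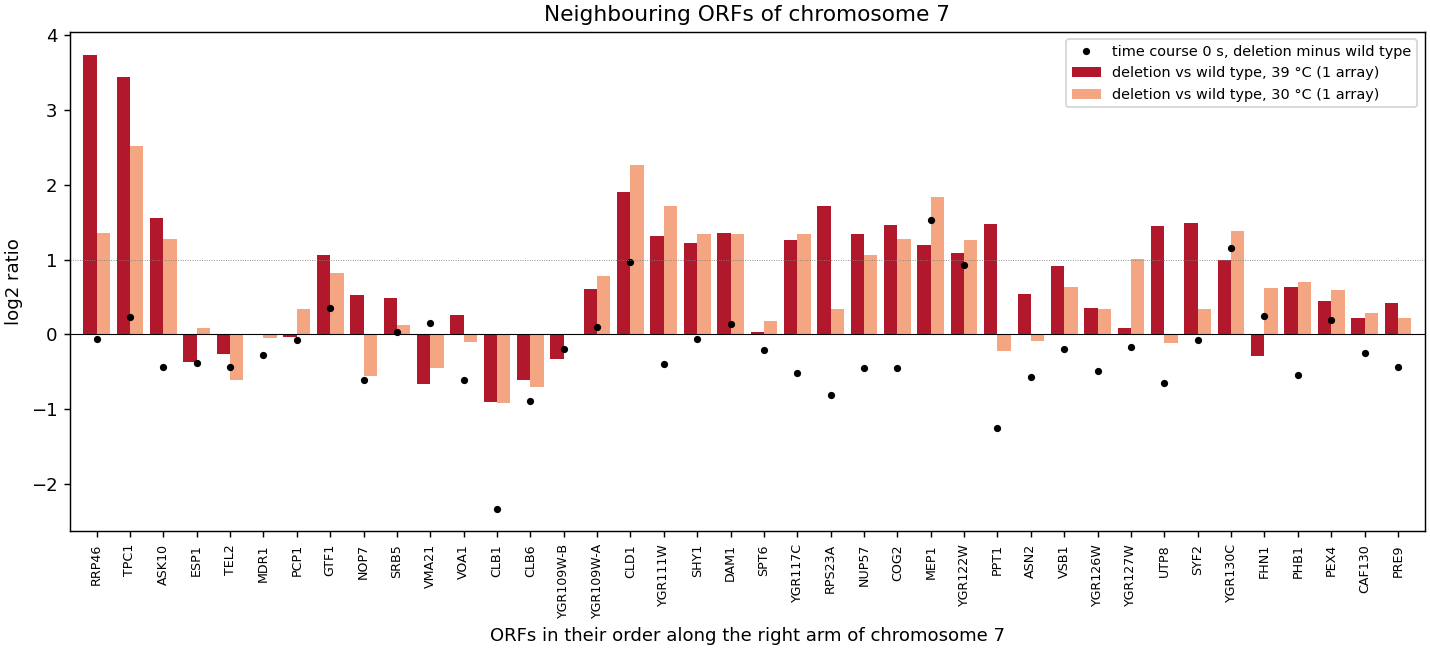
Log2 ratio of deletion over wild type at 39 °C and at 30 °C (y axis, 1 array each) for neighbouring annotated ORFs of the right arm of chromosome 7, in their order along the chromosome (x axis, not to distance), with black points for the time course difference at 0 s. From CLD1 to YGR122W most genes stand above 1 at both temperatures, with SPT6 near 0 among them.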

How the data were processed

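Per the labels, Cy5 and Cy3 cDNA of each array was made from total RNA (single arrays, acid phenol extraction) or poly(A) RNA (time course). The deposited values are log2 ratios of Cy5 over Cy3, and the base was read from the values: 100% of 2 to their power are whole thousandths, against 6.11% for base e. The scanner normalization is not given in the sources used here, and no channel intensities were used. All-probe medians were 0.03 on the 39 °C and -0.09 on the 30 °C strain array, and 0.06 (deletion) and 0.08 (wild type) on the heat arrays, and each array was centred on its own. ORFs were named through a RefSeq gene table (5777 of 6269 matched), with no coordinates. The number of arrays limits the precision.

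Gene lists and members were chosen with earlier results of these data known. Named genes are the 10 highest and 10 lowest of each array, of both temperatures, of both loop routes and of those past 2-fold at 30 °C that pass at 0 s, described list members, and a fixed set. Lists held 26 groups with 674 entries, of which 2 did not match and 5 had no value. The time course was fitted with limma 3.58.1 (R 4.3.3), 1 mean per strain and time over 13 arrays, and the fit was tested on simulated data. Other steps used Python 3.11.15, numpy 2.4.6 and pandas 2.3.3. Snf2 regions were assigned to ORFs by probe name and gene order. Alternatives were centring, scaling, fold, leaving out arrays and the replicate block, and centring by chromosome was added after seeing the data.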

Additional observations from a re-analysis of the deposited data

Results flagged for a closer look

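In the time course, 17 genes had a response from 0 s to 900 s that differed between deletion and wild-type cells in limma's interaction contrast. The difference, deletion less wild type, was lower for HXT5 (-3.68), ALD3 (-3.59), YBR116C (-2.97), BDH2 (-2.93), RTN2 (-2.81), GND2 (-2.49), TSA2 (-2.31), DIP5 (-2.17), FMP45 (-2.13), PCL5 (-2.05) and DSE4 (-1.94). It was higher for SIT1 (4.28), SPR28 (3.56), SMC3 (2.76), ADR1 (2.73), NSR1 (2.19) and YLR334C (1.96). DIP5, an amino acid permease, differed by 0.62 and 1.04 on the loop's routes, against its negative difference in the time course.

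A pair of genes moved at least 2-fold in opposite directions on the heat arrays, by 1 array a strain, and the difference was not tested. BUD22, a gene of ribosome biogenesis, stood at 1.18 in deletion cells and -1.32 in wild-type cells, and YAH1, the mitochondrial ferredoxin, at 1.39 and -1.09.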

How the results depend on the processing

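Counts on single arrays moved most with the fold. At 1.5-fold and 3-fold, 2222 and 231 genes were called at 39 °C, 1792 and 202 at 30 °C, 1866 and 146 on the deletion's heat array, and 986 and 137 by both loop routes. Centring moved the split, higher to lower: without centring it was 543 to 268 at 39 °C, 303 to 251 at 30 °C, 421 to 218 on the deletion's heat array and 378 to 77 by both routes, and with each chromosome centred 301 to 347, 250 to 255, 227 to 299 and 289 to 121. On ORF probes alone the deletion's heat array gave 232 to 324. Choosing heat genes at 4-fold gave medians of 1.65 in deletion and 2.64 in wild-type cells for induced genes, and -1.51 and -3.48 for repressed genes (difference 2.03). Without replicate 2 of the heat shock arrays the wild-type median of repressed genes was -1.93. Scaling arrays to a common spread gave 826 genes at 0 s, 80 at 900 s and 1 for the difference in response.

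The 0 s count ranged from 4 to 173 with 1 array left out. With 2 set numbers, the deviations of set 1 from the group means correlated at 0.167, 0.157 and 0.107 between groups, and nothing in the labels says what a set shares. Its use as a replicate block gave 413 genes at 0 s, 301 at 900 s and 8 for the difference in response. That last count ranged from 0 to 60 with 1 array left out, and where it was 0, between 491 and 786 genes had an unadjusted p under 0.05. Snf2 values for genes with a lower response moved to 0.21 at 1.5-fold and 0.41 at 3-fold after heat shock, and in unstressed cells to -0.050 at promoters of 1 gene, -0.038 at 1.5-fold and -0.11 at 3-fold. Genes with a higher response stood at -0.013 after heat shock at 1.5-fold. Genes higher at 30 °C stood at 0.30 after heat shock at 3-fold and -0.10 in unstressed cells at promoters of 1 gene, and genes lower at 30 °C at 0.060 after heat shock at 3-fold. The SD of the loop sum was 0.53 by the median absolute deviation and 0.65 after scaling. Of 1176 values of named genes on single arrays, 1099 moved by less than the error of 1 array. List medians were recomputed only without centring and centred on ORF probes. Each of these shifts all values of an array by 1 constant smaller than that error. That 156 of 156 list medians stayed within it was thus fixed in advance. Of 2646 gene values in the time course, 174 lost and 20 gained a call. No called value changed direction under any alternative. The cause of each shift was not tested.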
